A study of Mus musculus with 2 samples.

Results

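Neurog3-positive progenitor spermatogonia were described among cultured mouse THY-1+ germ cells, as single cells sequenced after 48 h with 20 ng/ml FGF9 (FGF9-treated, 1 library) or with 0 ng/ml (control, 1 library). A barcode was kept when it had at least 2000 genes, at most 20% of its unique molecular identifiers (UMIs, each standing for 1 captured RNA molecule) in mitochondrial genes, and fewer than 40 UMIs of Vim and S100a6 together, which removed feeder fibroblasts. Members were the kept cells with at least 1 UMI of Neurog3 and none of Gfra1 and Kit. They numbered 362 of 4537 kept FGF9-treated cells and 1196 of 4157 kept control cells, 1558 of 8694 in all, out of 5959 and 5312 barcodes in these libraries.

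The cultures had been enriched for spermatogonial stem cells (SSC) from testes of C57 LacZ pups with THY-1 beads and were kept on a layer of STO cells (mouse fibroblasts) as feeders. Cells of several mice were pooled into 1 encapsulation per treatment, so no spread between animals or cultures can be given and no test between treatments exists. The serum-free culture medium of both groups contained GDNF, GFRA1 and FGF2, at 20, 150 and 1 ng/ml in that order. At the start of treatment, according to the study's methods, the medium was changed to FGF9 or albumin, so that the control is a culture without its usual growth factors; the labels do not say whether GDNF and FGF2 were withdrawn. Every interval below is a 95% interval for counting error only, and "higher" and "lower" describe these libraries.

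Spermatogonia leave the stem cell state through a transit population of undifferentiated progenitors. SSC carry GFRA1 and RET, the receptor pair for GDNF, whereas progenitors lose GFRA1 and turn on Neurog3, a basic helix-loop-helix (bHLH) transcription factor, together with the SRY-box factor Sox3. Retinoic acid then drives progenitors to become differentiating spermatogonia, which carry the receptor KIT. bHLH factors act as dimers and bind E-boxes, short DNA motifs of the form CANNTG, and Neurog3 itself is best known as the factor that starts endocrine differentiation in the pancreas.

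Neurog3 lies at chr10:62133090-62134763 on the plus strand, Lmo1 at chr7:109138572-109175207 on the minus strand and Sox3 at chrX:60891366-60893430 on the minus strand (GRCm38, the mm10 build of the files, GENCODE vM21). Promoters are shown because the gate rests on a bHLH gene. They are those of Neurog3, Lmo1 and Sohlh1, a bHLH factor of the differentiating programme. Lmo1 leads the 12 genes named below as highest in members. Each promoter runs from 250 bases before the transcription start to 50 after it (RefSeq, GRCm38.p6, 5′ to 3′ on the gene's strand). Capitals mark CANNTG, which reads the same on both strands.
Neurog3: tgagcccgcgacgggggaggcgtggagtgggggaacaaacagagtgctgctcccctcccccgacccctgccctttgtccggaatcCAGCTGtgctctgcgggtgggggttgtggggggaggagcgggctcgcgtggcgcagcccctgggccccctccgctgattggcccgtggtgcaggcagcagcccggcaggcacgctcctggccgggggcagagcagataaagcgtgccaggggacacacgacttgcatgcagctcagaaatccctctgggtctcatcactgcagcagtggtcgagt
Lmo1: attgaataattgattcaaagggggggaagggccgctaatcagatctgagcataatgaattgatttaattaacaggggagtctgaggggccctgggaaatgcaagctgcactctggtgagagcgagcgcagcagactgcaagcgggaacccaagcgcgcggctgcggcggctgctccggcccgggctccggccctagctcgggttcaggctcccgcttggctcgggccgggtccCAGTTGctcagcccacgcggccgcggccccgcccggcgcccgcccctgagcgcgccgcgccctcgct
Sohlh1: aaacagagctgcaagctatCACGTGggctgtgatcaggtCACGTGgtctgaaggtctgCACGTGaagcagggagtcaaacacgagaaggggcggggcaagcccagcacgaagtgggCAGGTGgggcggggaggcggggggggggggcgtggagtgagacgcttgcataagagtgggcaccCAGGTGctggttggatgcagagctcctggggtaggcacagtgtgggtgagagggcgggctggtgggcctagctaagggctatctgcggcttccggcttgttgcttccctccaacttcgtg
These are chr10:62132840-62133139 (plus strand), chr7:109175158-109175457 (minus strand) and chr2:25847199-25847498 (minus strand). Neurog3 held 1 such motif and Lmo1 held 1, and Sohlh1 held 5, of which 3 were the form CACGTG. Of 32851 promoters of this length, 72.3% held at least 1 CANNTG, 17.6% held 3 or more, and 0.0883% held 3 or more CACGTG. A promoter was listed for 9 of the 12 genes named below as highest in members and 4 of these 9 held CANNTG, as did 4 of the 9 found among the 12 lowest.

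The gate held a smaller share of kept cells with FGF9 than without it. Members made up 7.98% of kept FGF9-treated cells (7.21 to 8.81%), against 28.8% of control cells (27.4 to 30.2%), a log2 ratio of -1.85 (-2.01 to -1.69). Most of that difference lay in Neurog3 itself: 16.0% of FGF9-treated cells (15.0 to 17.1%) had a Neurog3 UMI, with or without Gfra1 or Kit, against 41.0% of control cells (39.5 to 42.5%). Summed over all kept cells, Neurog3 stood at 14.4 CPM (UMIs of a gene per 1000000 UMIs summed over the cells) in FGF9-treated cells (13.5 to 15.3) and at 44.6 CPM in control cells (43.0 to 46.2). Fewer Neurog3-expressing cells and less Neurog3 RNA per cell cannot be told apart from such sums.

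The order was the same at matched depth. Median UMIs were 13067 per kept FGF9-treated cell and 14824 per kept control cell. With each cell thinned at random to 5000 UMIs, which kept 4515 of 4537 FGF9-treated and 4141 of 4157 control cells, the gate held 5.05% (4.43 to 5.73%) and 15.9% (14.8 to 17.1%), and with 8000 UMIs 7.15% and 22.0%. Among kept cells of both libraries ordered by UMIs and split into 4 equal parts, the gate held 6.79%, 8.84%, 8.33% and 8.39% of FGF9-treated cells from the shallowest to the deepest part. The matching control shares were 18.3%, 24.1%, 34.5% and 33.1%, and each was above its FGF9-treated counterpart.

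Free RNA, which gives UMIs in cells that do not make a gene, was read from the feeder fibroblasts removed by the Vim and S100a6 limit. Neurog3 was found in 2 of 63 feeder cells of the FGF9 library (3.17%, 0.387 to 11%; median 26481 UMIs) and in 4 of 31 of the control library (12.9%, 3.63 to 29.8%; median 20517 UMIs). Those counts correspond to 1.07 CPM (0.13 to 3.88) and 5.78 CPM (1.57 to 14.8), below the levels in kept cells of the same library. After thinning to 5000 UMIs, 1 of 63 and 1 of 31 feeder cells held Neurog3, and the upper limit of the FGF9 value, 8.53%, exceeds the 7.00% of kept FGF9-treated cells with Neurog3 at that depth. At 8000 UMIs 0 of 61 FGF9 feeder cells held it, which allows a share of up to 4.92%, against 10.3% of kept cells.

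**Figure D1:**
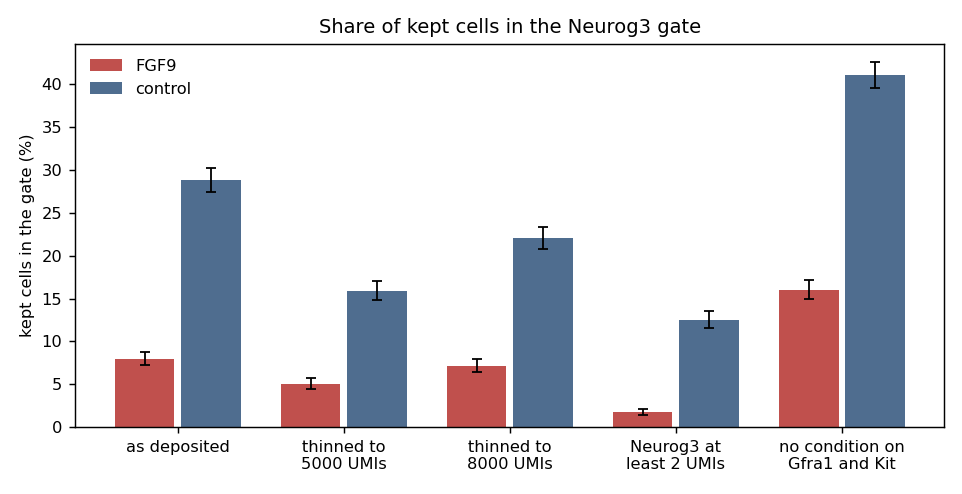
Share of kept cells in the Neurog3 gate (per cent, vertical axis) in the FGF9 library (red, left) and the control library (blue, right) as deposited, at 2 fixed depths, with Neurog3 required at 2 UMIs, and without the conditions on Gfra1 and Kit; bars are shares of cells and lines exact binomial 95% intervals. In each of the 5 settings the FGF9 bar is the lower, from 1.76% against 12.5% at 2 UMIs to 16.0% against 41.0% without the conditions.

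The conditions on Gfra1 and Kit removed different cells in the 2 libraries. Of Neurog3-positive cells, 49.7% (46.0 to 53.4%) entered the gate with FGF9 and 70.2% (68.0 to 72.4%) in control. Gfra1 was found in 47.8% of FGF9-treated Neurog3-positive cells and 17.3% of control ones. Kit was found in 5.08% with FGF9 and in 16.0% in control. With FGF9, Gfra1 without Kit removed 329 Neurog3-positive cells and Kit without Gfra1 removed 18, whereas in control these removed 236 and 213.

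Neurog3 and Gfra1 were found together under many barcodes of the FGF9 library. Such cells had a median of 16199 UMIs with FGF9, against 13264 in members, and 17219 against 15699 in control. No doublet caller was run, so the part of doublets (2 cells under 1 barcode) was not tested. Gfra1 was found in 47.8% (44.1 to 51.5%) of Neurog3-positive and 49.0% (47.4 to 50.6%) of Neurog3-negative FGF9-treated cells. At 5000 UMIs the shares were 25.9% (21.2 to 31.2%) and 24.98% (23.7 to 26.3%), and at 8000 UMIs 29.0% (24.8 to 33.5%) and 34.6% (33.0 to 36.1%). In control cells at 5000 UMIs Gfra1 was found in 4.90% (3.46 to 6.73%) of Neurog3-positive and 8.34% (7.43 to 9.31%) of Neurog3-negative cells, and at 8000 UMIs in 9.70% (7.996 to 11.6%) and 12.4% (11.2 to 13.6%). Kit was found in 2.22% of Neurog3-positive and 1.43% of Neurog3-negative FGF9-treated cells at 5000 UMIs, and in 5.59% and 5.69% of such control cells, with overlapping intervals in both libraries.

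Most members sat at the edge of the rule. Exactly 1 Neurog3 UMI was found in 282 of 362 FGF9-treated and 676 of 1196 control members, and 3 or more in 23 and 198. Just outside lay the kept cells with no Neurog3, Gfra1 or Kit UMI, 1862 with FGF9 and 1638 in control, and Neurog3-positive cells with exactly 1 Gfra1 UMI and no Kit, 176 and 177. The other limits touched almost no member: none had more than 5 UMIs of Vim and S100a6 together, and 2 FGF9-treated and 1 control member had fewer than 2500 genes. Of 11 barcodes found in both libraries, none was a member in both.

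The label was checked against markers, and by median the progenitor markers separated members no better than the differentiating ones. Sox3, the second progenitor marker, was found in 49.4% (44.2 to 54.7%) of FGF9-treated members against 30.9% of other kept cells, and in 75.5% (73.0 to 77.9%) of control members against 59.5%. At 5000 UMIs these shares were 20.6% against 13.2% with FGF9 and 38.7% against 33.8% in control. Sox3 was found in 4 of 63 FGF9 and 7 of 31 control feeder cells. The germ cell gene Dazl was found in every member, and 0 of the 12 Sertoli, Leydig and immune markers reached 20 CPM. The 10 feeder fibroblast markers summed to 260.5 CPM in FGF9-treated members against 298.8 CPM in other cells, and to 195.2 against 205.7 CPM in control. The other progenitor markers separated members little: log2 ratios of members over other cells were 0.07 with FGF9 and 0.17 in control for Upp1 (uridine phosphorylase), -0.10 and 0.14 for Nanos3 (an RNA-binding germ cell protein), 0.04 and -0.06 for Galnt12 and 0.26 and 0.21 for the retinoic acid receptor Rarg. With Sox3 included, the median over progenitor markers at 20 CPM or more was 0.06 with FGF9 and 0.17 in control. Over the 3 differentiating markers at that level, Sohlh1, Crabp1 and Lmo1, it was 0.44 and 0.18.

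Members differed from other kept cells in few genes, by small ratios. UMIs were summed over cells, and genes with at least 20 CPM in either group were counted as past the fold at a log2 ratio of at least 0.32 in either direction, without the 5 genes of the rule. In the FGF9 library 92 of 6712 genes were higher in members (1.37%) and 126 lower (1.88%), 218 in all (3.25%). In control 25 of 6761 were higher (0.37%) and 33 lower (0.488%), 58 in all (0.858%). The median half-width of the interval at 20 to 30 CPM was 0.26 (log2) with FGF9, where members were few, and 0.15 in control, so that ratios near the limit are within counting error of it with FGF9. Past the fold in both libraries were 5 of 6448 genes higher (0.0775%) and 14 lower (0.217%). Of the genes past the fold with FGF9 and tested in both libraries, 73 of 86 higher and 75 of 89 lower ones had the same sign in control. Of the genes past the fold in control, 11 of 12 higher and 32 of 33 lower ones tested in both libraries had the same sign with FGF9. Across all 6448 genes the 2 libraries' ratios correlated with Pearson's r = 0.43 and Spearman's rho = 0.38, a description across genes, which are not replicates.

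Lmo1, a LIM-domain protein that bridges transcription factor complexes, had the highest log2 ratio, by the mean of both libraries, among genes with at least 20 CPM in members or other cells of each library. It stood at 74.8 CPM in FGF9-treated members against 47.7 CPM in other FGF9-treated cells, a log2 ratio of 0.65 (0.50 to 0.80). In control it stood at 84.5 CPM in members against 54.2 CPM in others, a log2 ratio of 0.64 (0.55 to 0.73). Its ratio was thus nearly the same in both libraries. The study counts Lmo1 among its markers of differentiating spermatogonia.

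Sox3 reached 59.02 CPM in FGF9-treated members against 35.4 CPM in other FGF9-treated cells (log2 ratio 0.74, 0.56 to 0.91). In control it reached 117.6 CPM in members against 89.8 CPM in others (0.39, 0.32 to 0.46). Lin28a, an RNA-binding protein that blocks let-7 microRNA maturation, gave log2 ratios of 0.37 (0.14 to 0.60) with FGF9 and 0.47 (0.35 to 0.59) in control, from 32.1 against 24.8 CPM and 44.0 against 31.8 CPM.

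Under the same 20 CPM limit in both libraries, the other 9 of the 12 highest genes were Sfi1 (a centrosomal protein), Arl8a (a lysosomal GTPase), Sfxn1 (a mitochondrial serine carrier), Krt24 (a keratin), Fras1 (an extracellular matrix protein), Fam241b, Tex19.2, Gstp1 and Lmbr1l. Their log2 ratios ran from 0.21 for Tex19.2 to 0.61 for Arl8a with FGF9 and from 0.22 for Lmbr1l to 0.62 for Sfi1 in control. Tex19.2 and Gstp1 have close paralogs with which reads may be shared, so their values are uncertain. Of these 12, the interval reached 0 only for Tex19.2 in the FGF9 library (-0.07 to 0.47).

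Among genes within that limit, the lowest in members was Nefm, a neurofilament subunit. Nefm stood at 118.6 CPM in FGF9-treated members against 208.9 CPM in other FGF9-treated cells, a log2 ratio of -0.82 (-0.93 to -0.70). In control it stood at 8.71 CPM in members against 24.4 CPM in others (-1.48, -1.72 to -1.25). Apoe, a lipid carrier protein, followed with log2 ratios of -0.94 (-1.21 to -0.69) with FGF9 and -0.76 (-0.96 to -0.56) in control. The rule keeps Gfra1-positive cells out of members but not out of other cells. In cells without Neurog3, Gfra1 and Kit UMIs, Nefm stood at 162.4 CPM with FGF9 and 13.9 CPM in control. Apoe stood there at 44.1 and 18.1 CPM. These levels lay between those of members and other cells. The remaining 10 of the 12 lowest were the adhesion receptor Adgrl2, Prr13, the IGF-binding protein Igfbp5, the imprinted gene Peg3, Pakap (ENSMUSG00000038729; its symbol stands on another identifier too), the homeobox gene Barhl2, the nuclear receptor Rora, the glucose transporter Slc2a3, the collagen gene Col18a1 and Ifitm1. Apart from Ifitm1, whose control value was -0.02 (-0.11 to 0.08), their intervals lay below 0 in both libraries. Genes under 20 CPM in 1 library could not enter either set, and some had ratios beyond those named, among them Tcp11l1 (0.97 with FGF9 and 0.69 in control) and Dpysl3 (0.86 and 0.57) above 0 and the actin-capping Capg (-0.62 and -1.04) below it.

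**Figure D2:**
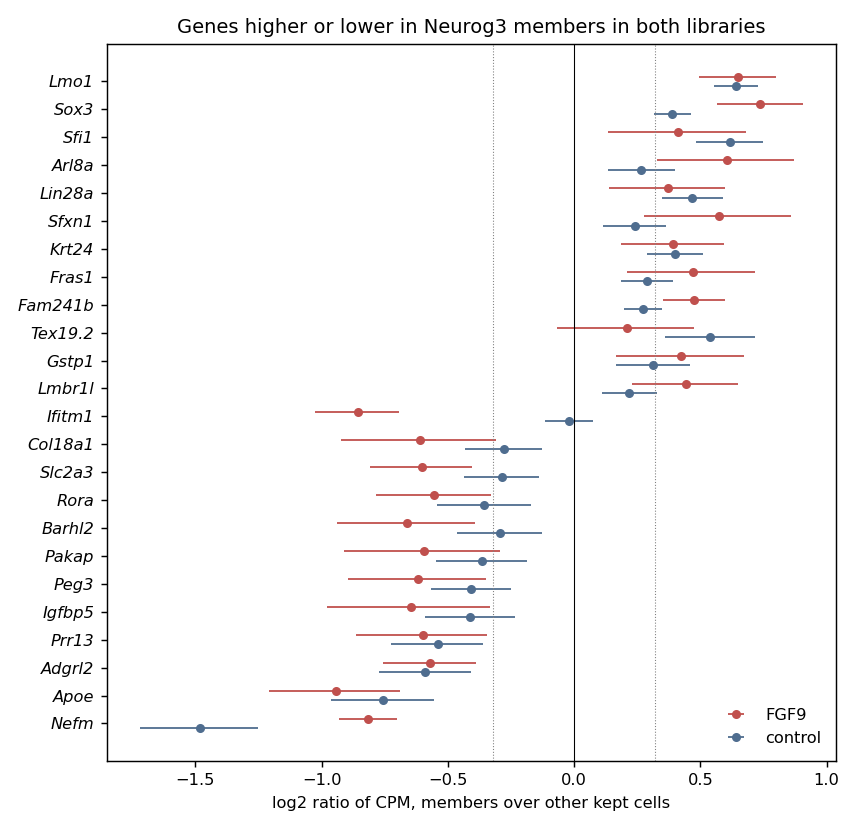
Log2 ratio of CPM in Neurog3 members over other kept cells (horizontal axis) for the 12 highest and 12 lowest genes with at least 20 CPM in each library, by mean of both libraries, in the FGF9 library (red) and the control library (blue); points are ratios, lines 95% counting intervals and dotted lines the fold limit of 0.32 on the log2 scale. Lmo1 lies at 0.65 and 0.64, Nefm at -0.82 and -1.48, and Ifitm1 departs from 0 only with FGF9, at -0.86 against -0.02. Other kept cells include cells with Gfra1 or Kit UMIs, which members lack by the rule.

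Ret, a stem cell gene outside the rule, was lower in members but far from absent. Ret, the signalling receptor for GDNF, stood at 85.4 CPM in FGF9-treated members against 105.9 CPM in other FGF9-treated cells (log2 ratio -0.31, -0.45 to -0.17), and at 28.4 CPM in control members against 37.7 CPM in others (-0.41, -0.55 to -0.27). Set against cells without Neurog3, Gfra1 and Kit, at 96.4 CPM of Ret with FGF9 and 31.3 CPM in control, the log2 ratios were -0.17 and -0.14, and with cells thinned to 5000 UMIs the control ratio to other kept cells was 0.073. Ret was still found in 67.1% of FGF9-treated and 32.9% of control members. Esrp1, a splicing regulator, gave -0.24 (-0.45 to -0.03) and -0.36 (-0.55 to -0.16). Of the 15 SSC list genes outside the rule, 6 reached 20 CPM with FGF9, with 1 higher than 0, 5 lower, 1 of them past the fold (Id4, an inhibitor of bHLH factors, at -0.35) and a median log2 ratio of -0.23, against 0.0083 over all genes. In control 2 reached 20 CPM, with 1 above 0 and 1 below, Ret, which was past the fold. Over all genes 1.88% were past the fold and lower with FGF9, and 0.488% in control. With cells thinned to 5000 UMIs the FGF9 value for Id4 was 0.020. The cells counted as others were partly chosen by carrying Gfra1, and against others without Gfra1 and Kit UMIs the genes past the fold were 168 with FGF9 (97 higher, 71 lower) and 37 in control (28 higher, 9 lower).

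A minority of the differentiation genes were past the fold in members over other kept cells, namely Lmo1 in both libraries and Sohlh1 and Crabp1 with FGF9. The other kept cells include Gfra1-positive ones, which members lack by the rule. Sohlh1 stood at 141.3 CPM in FGF9-treated members against 104.1 CPM in other FGF9-treated cells (log2 ratio 0.44, 0.33 to 0.55), and at 231.0 CPM in control members against 217.8 CPM in others (0.08, 0.03 to 0.13). Crabp1, a retinoic acid-binding protein, gave 0.39 (0.23 to 0.55) and 0.18 (0.11 to 0.26). In cells without Neurog3, Gfra1 and Kit UMIs, Sohlh1 stood at 114.6 CPM with FGF9 and 210.9 CPM in control. With FGF9 this was nearer to members than other kept cells were, but not in control. Crabp1 with FGF9 stood at 53.6 CPM in such cells against 67.1 CPM in members. Crabp2, a paralog of Crabp1, went the other way over other kept cells, at -0.19 (-0.31 to -0.07) and -0.35 (-0.45 to -0.26). The methylcytosine dioxygenase Tet3 gave 0.42 (0.24 to 0.60) and 0.12 (0.03 to 0.22), and the DNA methyltransferase Dnmt3b 0.31 (0.09 to 0.53) and 0.18 (0.07 to 0.28). Of the 10 differentiation genes found outside the rule, 7 reached 20 CPM. Of these 7, 3 with FGF9 and 1 in control were past the fold, all higher, with medians of 0.31 and 0.08. Over all genes 1.37% were past the fold and higher with FGF9, and 0.37% in control. Stra8, a retinoic acid target needed for meiotic entry, was found in 9.12% of FGF9-treated and 8.95% of control members, against 7.62% and 9.12% of other cells.

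Most genes of general undifferentiated identity differed little between members and other cells. Zbtb16 and Sall4, zinc finger factors of undifferentiated spermatogonia, differed by at most 0.06 (log2). Uchl1, a deubiquitinase abundant in spermatogonia, stood at 802 CPM in FGF9-treated members against 634 CPM in others (log2 ratio 0.34, 0.29 to 0.38), and at 1435 CPM in control members against 1306 CPM in others (0.14, 0.12 to 0.16). Pou5f1, the pluripotency factor OCT4, was lower at -0.37 (-0.54 to -0.21) and -0.28 (-0.39 to -0.18). Pou5f1 belongs to the progenitor list, and it was past the fold and lower in members with FGF9. Over the 12 measured genes of the undifferentiated identity list, which does not hold Pou5f1, the medians were 0.04 and 0.06. Past the fold, all higher, were 2 of these 12 with FGF9, Lin28a and Uchl1, and 1 in control, Lin28a. The shares of all genes past the fold and higher were 1.37% with FGF9 and 0.37% in control.

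The bHLH partners Tcf3 and Tcf12 were expressed at like levels in members and other cells. Of the inhibitors, Id4 with FGF9 and Id1 in control were lower in members, but not under every alternative. Tcf3 and Tcf12, E proteins that dimerize with bHLH factors, had log2 ratios of 0.07 and -0.12 with FGF9 and of -0.0016 and 0.02 in control. Id1, an inhibitor that titrates E proteins, gave -0.08 (-0.31 to 0.15) with FGF9 and -0.38 (-0.60 to -0.16) in control. Without the condition on Gfra1 and Kit the control value for Id1 was 0.0089. Of the 8 bHLH partner and Notch genes measured with FGF9, 1 was past the fold, the inhibitor Id4, lower in members. Over all genes 1.88% were past the fold and lower with FGF9. With cells thinned to 5000 UMIs the value for Id4 was 0.020. In control 5 genes of this list reached 20 CPM, with 0 past the fold, 4 above 0 and 1 below. Targets of NEUROG3 known from the pancreas, among them Neurod1, Insm1 and Pax4, were not measurable: 0 of 9 reached 20 CPM, and all 9 together had no UMI in FGF9-treated members, which allows up to 0.550 CPM, and 0.89 CPM in control members.

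S phase genes differed little by gate, whereas in control most G2/M genes were lower in members. The 17 S phase genes measured with FGF9 had a median log2 ratio of 0.06 and the 14 measured in control 0.02, with 0 past the fold in both. In control, 16 of 17 G2/M genes were below 0 (median -0.10) and 3 were past the fold, all lower. Over all genes 0.488% were past the fold and lower in control. Mki67 stood at 29.5 CPM in control members against 46.5 CPM in others (-0.65, -0.79 to -0.52). With others limited to cells without Gfra1 and Kit UMIs the control value for Mki67 was 0.23, and among cells with a low share of cell cycle UMIs it was 0.12. Mki67 was found in 36.7% of FGF9-treated members against 37.9% of others, and in 19.6% of control members against 20.2%.

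Levels of several genes followed the number of Neurog3 UMIs in the cell. Neurog3 UMIs define the gate, and Lmo1 and Sox3 were named for their ratios in these same cells. The step from 0 to 1 UMI thus restates that choice in part, and the values are a description. Among kept cells without Gfra1 and Kit UMIs, Lmo1 stood at 50.6, 70.8, 87.0 and 93.2 CPM at 0, 1, 2 and 3 or more Neurog3 UMIs with FGF9, and at 56.6, 78.4, 87.6 and 97.6 CPM in control. Sox3 stood at 38.3, 57.4, 68.2 and 54.7 CPM with FGF9 and at 91.9, 110.7, 118.3 and 136.7 CPM in control. The counts of cells behind these steps were 1862, 282, 57 and 23 with FGF9 and 1638, 676, 322 and 198 in control, so the last FGF9 step rests on few cells.

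Nefm and Apoe were lower in cells with more Neurog3 UMIs. They were named for low levels in members of these same cells, so their step from 0 to 1 restates that choice in part. With FGF9, Nefm stood at 162.4, 127.0, 101.3 and 54.7 CPM at 0, 1, 2 and 3 or more Neurog3 UMIs, and Apoe at 44.1, 26.4, 16.5 and 9.6 CPM. In control Nefm was at 13.9 CPM at 0 and between 8.4 and 9.1 CPM above it, and Apoe was at 18.1, 13.2, 13.3 and 9.0 CPM. Sfi1 stood at 18.3, 23.1, 20.9 and 25.7 CPM with FGF9, the last from 8 UMIs (11.1 to 50.7), and at 24.7, 33.8, 36.9 and 53.3 CPM in control. Foxf1, a forkhead factor, stood at 14.1, 15.3, 14.3 and 6.43 CPM with FGF9, the last from 2 UMIs (0.779 to 23.2), and at 17.3, 22.5, 27.4 and 37.2 CPM in control. The median UMIs of the cells over these steps were 12096.5, 13143.5, 14027 and 11818 with FGF9 and 13634, 15372.5, 15753 and 16876.5 in control, and their part in the trends was not tested.

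**Figure D3:**
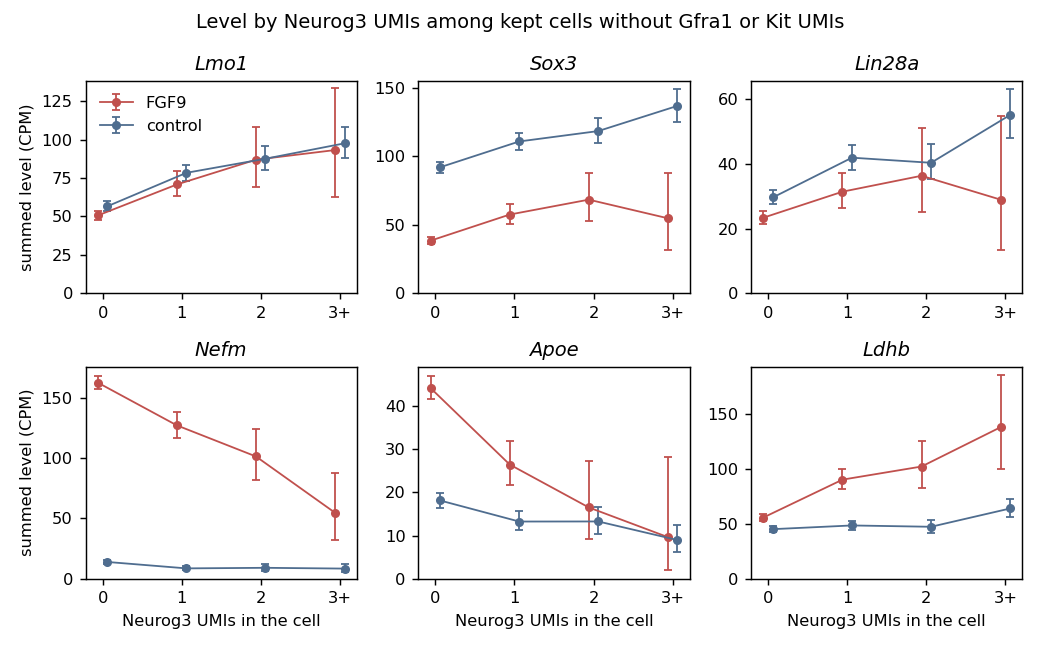
Level in CPM (vertical axes, from 0) of 6 genes in kept cells without Gfra1 or Kit UMIs, by the number of Neurog3 UMIs in the cell (horizontal axes), with FGF9 (red) and in control (blue); points are sums over cells and lines 95% counting intervals. Lmo1 climbs along nearly the same line in both libraries, Nefm and Apoe decline with FGF9, Apoe also in control, and Ldhb climbs to 138.2 CPM with FGF9 against 64.1 CPM in control. The genes were picked from ratios in these same cells.

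Set beside the other gates of the same libraries, members had the highest Lmo1 in control and nearly the highest with FGF9. With FGF9, Lmo1 stood at 74.8 CPM in members, at 40.1 CPM in the Gfra1 and Ret gate (1360 cells with both receptors and no Neurog3 or Kit) and at 48.0 CPM in the Kit gate (79 cells with Kit and no Neurog3 or Gfra1). It stood at 77.4 CPM in the 554 cells with Sox3 and Crabp1 but no Neurog3. In control the values were 84.5 CPM in members, 38.1 CPM in the Gfra1 and Ret gate (234 cells), 52.7 CPM in the Kit gate (294 cells) and 69.7 CPM in the Sox3 and Crabp1 gate (927 cells). Cells that held both Neurog3 and Gfra1 lay in between, at 58.4 CPM with FGF9 (348 cells) and 54.4 CPM in control (295 cells).

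Nefm was highest in the Gfra1 and Ret gate in both libraries. With FGF9 it stood at 118.6 CPM in members and 118.0 CPM in the Kit gate, at 158.2 CPM in cells with both Neurog3 and Gfra1 and at 271.4 CPM in the Gfra1 and Ret gate. In control the same order was 8.71, 10.6, 38.7 and 85.0 CPM. The Sox3 and Crabp1 gate, whose Lmo1 was near that of members, held 221.9 CPM of Nefm with FGF9 and 13.7 CPM in control. Ret in control was at 28.4 CPM in members, close to the 22.8 CPM of the Kit gate and below the 117.7 CPM of the Gfra1 and Ret gate, which was chosen by Ret. Epcam, an epithelial adhesion molecule set beside these gates after its values were seen, was at 101.6 CPM in control members and 232.9 CPM in the control Gfra1 and Ret gate, but at 232.4 and 274.6 CPM with FGF9.

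The KIT protein on the surface, read as counts of an antibody tag, had nearly the same median in members and other kept cells. The median was 315 tags per FGF9-treated member against 309 per other FGF9-treated cell, and 436 per control member against 440 per other control cell. Cells of the Kit gate, chosen by Kit RNA alone, had medians of 405 with FGF9 and 656.5 in control. Tags above the 90th percentile of the library's kept cells were found on 10.8% (7.77 to 14.4%) of FGF9-treated members against 9.84% (8.96 to 10.8%) of other FGF9-treated cells. In control they were found on 6.69% (5.34 to 8.26%) of members against 11.3% (10.2 to 12.5%) of other cells. The rule keeps cells with Kit RNA out of members but not out of other cells. Among cells without Neurog3, Gfra1 and Kit UMIs the shares were 8.43% (7.21 to 9.79%) with FGF9 and 5.80% (4.72 to 7.04%) in control. The median tags of those cells were 304 and 415.5. The matching shares in the Kit gate were 36.7% and 32.3%. Tag counts differed between the libraries in every gate, and library-wide staining cannot be told apart from treatment.

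Between treatments, members differed in more genes than they did from their neighbours. Within the gate 252 of 6904 genes (3.65%) were higher and 237 (3.43%) lower with FGF9 by 1.5-fold or more, 489 in all (7.08%). In other kept cells 243 (3.53%) were higher and 212 (3.08%) lower of 6884, 455 in all (6.61%). Neurog3 itself, fixed by the rule at 1 UMI or more, was at 87.8 CPM in FGF9-treated and 104.7 CPM in control members.

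The highest ratios lay in genes known to respond to FGF and GDNF signalling. Etv5, an ETS factor that maintains SSC, stood at 26.2 CPM in FGF9-treated members against 0.84 CPM in control members, a log2 ratio of 4.97 (4.24 to 5.79). In other kept cells it stood at 29.8 CPM with FGF9 and 2.24 CPM in control, a log2 ratio of 3.73 (3.45 to 4.03). The related Etv4 gave 4.94 (4.21 to 5.76) in members and 4.27 (3.92 to 4.65) in others, and the ERK phosphatase Dusp6 3.51 (3.13 to 3.90) and 3.01 (2.84 to 3.18). Of the FGF and GDNF response list, 11 of 19 genes were measured in members and all 11 were above 0, with 9 past the fold and a median of 1.65, against -0.02 over all genes. The same 9 of 11 count and a median of 1.44 were found in other kept cells. The shares of all genes past the fold and higher were 3.65% in members and 3.53% in other kept cells.

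Further genes highest with FGF9 in members were Nefm (log2 ratio 3.77), the vasodilator peptide gene Adm (3.22), the PCNA-associated factor Pclaf (2.99), the autophagy receptor Optn (2.92), the phosphofructokinase Pfkp (2.84), Upf3b of nonsense-mediated decay (2.73) and the actin-capping Capg (2.46). Ret was at 85.4 CPM in FGF9-treated members against 28.4 CPM in control members (1.59, 1.41 to 1.77). The inhibitors Id1 and Id3 gave 1.44 (1.15 to 1.73) and 2.12 (1.82 to 2.41). Cell cycle genes were higher in FGF9-treated members in 17 of 17 measured S phase genes (median 0.53, 7 past the fold) and 18 of 18 G2/M genes (median 0.63, 11 past the fold). In other kept cells 16 of 16 measured S phase genes were also higher (median 0.47, 5 past the fold). So were 18 of 18 G2/M genes there (median 0.58, 9 past the fold). Over all genes 3.65% were past the fold and higher in members, and 3.53% in other kept cells.

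Lower with FGF9 were Dpysl3, a cytoskeletal regulator, at 3.85 CPM in FGF9-treated against 25.4 CPM in control members (log2 ratio -2.72, -3.43 to -2.09), the homeobox gene Nkx1-1 (-2.54) and the aminopeptidase Enpep (-2.45). Epb41l4a, Tcp11l1, Tubb2b, Npffr1, Eppin, Reln and Ctso lay between -2.36 and -1.36. Most progenitor genes were also lower with FGF9, inside the gate and outside it. Sox3 was at 59.02 CPM in FGF9-treated against 117.6 CPM in control members (-0.99, -1.17 to -0.83). In other kept cells Sox3 gave -1.34 (-1.42 to -1.27). In members Upp1 gave -0.69 (-0.88 to -0.51), Rarg -0.69 and Nanos3 -0.60 (-0.74 to -0.47). Of the 8 progenitor genes outside the rule, 4 were past the fold in members, all lower, with a median of -0.53. In other kept cells 3 of these 8 were past the fold, all lower, with a median of -0.36. Over all genes 3.43% were past the fold and lower in members, and 3.08% in other kept cells. Within the gate Sohlh1 gave -0.71 (-0.82 to -0.60), Crabp1 -0.68 (-0.84 to -0.52) and Uchl1 -0.84 (-0.89 to -0.79).

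**Figure D4:**
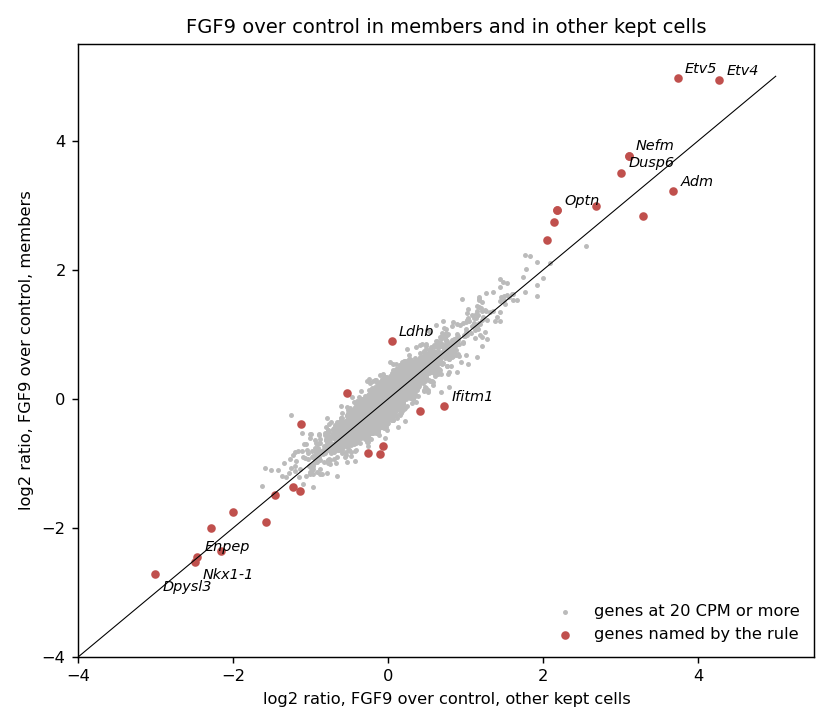
Log2 ratio of CPM, FGF9 over control, in members (vertical axis) and in other kept cells (horizontal axis); grey points are genes at 20 CPM or more, red points the genes named by rule, and the line marks equal ratios. Most genes lie near the line; Etv5 is at 4.97 in members against 3.73 in others, Ldhb at 0.89 against 0.04, and Ifitm1 at -0.11 against 0.72.

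A few genes differed between FGF9 and control in members but not in other cells, or the reverse. Ldhb, a lactate dehydrogenase subunit, stood at 95.1 CPM in FGF9-treated members against 51.2 CPM in control members (log2 ratio 0.89, 0.74 to 1.05), and in other cells at 58.3 CPM with FGF9 and 56.5 CPM in control (0.04, -0.03 to 0.12). Ifitm1, an interferon-induced membrane protein, stood at 58.3 CPM in FGF9-treated members against 63.1 CPM in control members (-0.11, -0.30 to 0.06), and in others at 105.6 CPM with FGF9 and 64.0 CPM in control (0.72, 0.66 to 0.79). Foxf1 gave -0.86 (-1.22 to -0.52) in members and -0.10 (-0.23 to 0.03) in others. These genes were picked as the extremes of this difference, so their sizes are a description.

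The other genes with the highest difference were Optn, Crybg3, Nefm and Bmp2k, and those with the lowest Stk39, Selenom and Gpr108. Their ratios in members minus those in others were 0.74, 0.73, 0.67 and 0.61 for the first 4 and -0.66, -0.60 and -0.58 for the last 3, on the log2 scale. For Nefm and Bmp2k the difference turned to -0.32 and -0.14 with cells thinned to 5000 UMIs. In Ldhb the level within the FGF9 library also followed Neurog3, at 55.9, 90.4, 102.4 and 138.2 CPM at 0, 1, 2 and 3 or more Neurog3 UMIs, whereas in control it was at 45.3, 48.6, 47.4 and 64.1 CPM. The FGF9-treated Kit gate, whose cells hold no Neurog3, was at 89.7 CPM of Ldhb.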

How the data were processed

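Gene expression and a KIT antibody tag were measured in single cultured germ cells by droplet sequencing, 1 library per treatment, replicate 1 in both. Raw UMI counts, with a column for each barcode, were deposited; the authors mapped reads to mm10 with Cell Ranger (3.1.0 in the matrix header); the labels also name Seurat 3.1. Members and gene lists were chosen with earlier results of these data known. UMIs were summed over members and over other kept cells and scaled to 1000000 (CPM). Ratios are log2, with exact conditional binomial 95% intervals; CPM intervals are exact Poisson and shares exact binomial (Clopper-Pearson), and the interval of a ratio of shares is log-normal. Because UMI counts come from 1 library per treatment, and cells are not replicates, no p-value is given and the intervals cover counting error only. Members had a median of 13264 UMIs with FGF9 and 15699 in control, other kept cells 13045 and 14392.

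Genes were named by rule, leaving out predicted genes, mitochondrial transcripts and the 5 rule genes: the 12 highest and 12 lowest members over others, by mean of both libraries, with the same sign and at least 20 CPM in either group in both; the 10 highest and 10 lowest FGF9 over control in members; the 5 highest and 5 lowest differences of that ratio, with at least 50 UMIs in each sum; and list members. The fold limits were 1.25 and 1.5. Symbols on more than 1 identifier were left out of the lists. No doublet caller was run, and an alternative left out cells above 2.5 times the median UMIs. Thinning drew UMIs without replacement. Alternatives covered the mitochondrial and feeder limits, depth, the Neurog3, Gfra1 and Kit conditions, the choice of other cells, a cell cycle limit (cells at or below the median share of S and G2/M list UMIs), low-value filters, 5 CPM added and scaling by TMM (edgeR 4.0.16, R 4.3.3) or median of ratios. Interval code was tested on simulated data. Python 3.11.15, numpy 2.4.6, scipy 1.17.1 and pandas 2.3.3 were used.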

Additional observations from a re-analysis of the deposited data

Results flagged for a closer look

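A handful of genes lay on opposite sides of 0 in the 2 libraries when members were set against other kept cells, each with a counting interval clear of 0. With 1 library per treatment the difference between libraries was not tested. Ldhb had a log2 ratio of 0.71 with FGF9 and -0.14 in control; over 12 alternatives the FGF9 value ran between 0.62 and 0.98 and the control value between -0.23 and 0.18. Cdkn1c, an inhibitor of cyclin-dependent kinases, had 0.33 with FGF9 and -0.20 in control, and its FGF9 value was -0.027 with cells thinned to 8000 UMIs. The meiotic cohesin genes Smc1b (0.21 with FGF9, -0.18 in control) and Stag3 (0.21 with FGF9, -0.12 in control) went the same way. The kinase gene Stk39 had -0.38 with FGF9 and 0.28 in control. For Dazl the values were 0.03 with FGF9 and -0.02 in control. Other cells without Gfra1 or Kit UMIs, the Sox3 and Crabp1 gate and the Kit gate were at 129.2, 197.0 and 123.5 CPM of Cdkn1c with FGF9, against 162.2 CPM in members; in control they were at 76.3, 89.3 and 83.7 CPM, against 73.2 CPM in members.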

How the results depend on the processing

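No paired analysis was possible because each treatment has 1 library. The share of kept cells in the gate was 5.05%, 7.15%, 1.76% and 16.0% with FGF9 (cells thinned to 5000, thinned to 8000, Neurog3 at 2 UMIs, no condition on Gfra1 and Kit) and 15.9%, 22.0%, 12.5% and 41.0% in control, with log2 ratios of -1.66, -1.62, -2.83 and -1.35, all below 0. The counts of genes past the fold moved most. For members over other cells they were 218 with FGF9 and 58 in control. A mitochondrial limit of 10% gave 337 and 107, thinning to 5000 gave 1070 and 279, thinning to 8000 gave 482 and 126, Neurog3 at 2 UMIs gave 1134 and 103, no condition on Gfra1 and Kit gave 50 and 18, a limit of 10 CPM gave 518 and 159, and no limit gave 5811 and 5812. With FGF9 the cell cycle limit gave 706 and 5 CPM added gave 120; in control, others without Gfra1 or Kit gave 37. FGF9 over control in members had 489 genes past the fold, 847 after thinning to 5000, 850 at 10 CPM and 4967 with no limit; 481 of the 489 stayed past the fold with TMM.

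Of 5080 values of single genes under alternatives, 4219 stayed within the counting interval, 833 left it and 28 were counted as turned in sign. A turn was counted only for ratios past the fold to begin with and for differences between members and others. Smaller ratios that crossed 0 are among the 4219 or the 833 and are not listed here. Members over others turned after thinning to 5000 for Fras1 (-0.044), Bmp2k (-0.15), Gpr108 (0.16) and Id4 (0.020) with FGF9 and Ret (0.073) in control, and after thinning to 8000 for Cdkn1c (-0.027) with FGF9. In control they turned without the condition on Gfra1 and Kit for Id1 (0.0089), Mki67 (0.15), Top2a (0.00063) and Plk1 (0.13), against others without Gfra1 or Kit for Mki67 (0.23), Top2a (0.030) and Plk1 (0.15), and under the cell cycle limit for Mki67 (0.12) and Plk1 (0.039). FGF9 over control in members turned under that limit, which selects on most of these genes, for Hormad1 (-0.19), Rrm2 (-0.27), Mki67 (-0.090), Top2a (-0.29), Cdk1 (-0.20), Ube2c (-0.29), Plk1 (-0.67), Tpx2 (-0.048), Kif11 (-0.68) and Nusap1 (-0.55), and after thinning to 5000 for Cdk1 (-0.15). The difference between members and others turned after thinning to 5000 for Nefm (-0.32) and Bmp2k (-0.14). The cause was not tested. Over 12 alternatives each, Lmo1 stayed between 0.51 and 0.85 with FGF9 and 0.35 and 0.69 in control, Sox3 between 0.52 and 1.08 and between 0.28 and 0.42, and Nefm between -1.20 and -0.45 and between -1.63 and -0.53.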
